A study of Arabidopsis thaliana with 10 samples.

Results

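The AP2/ERF transcription factor genes AT5G61590, ORA47 (AT1G74930), AT1G77640 and AT1G33760 were followed across 10 Affymetrix ATH1 arrays of Arabidopsis thaliana rosettes. Each of the 4 genes had 1 probe set annotated to it alone, out of 13286 genes with such a probe set. The genes were chosen by their signal in earlier results of these arrays, which placed them among the largest changes: AT1G77640 and AT1G33760 for low signal in homozygous plants of the CesA4 line, AT5G61590 for low signal in homozygous plants of the CesA6 line, and AT5G61590 and ORA47 for a change that differed between the lines. Those values are therefore given as a description, with no test. All 4 genes passed the filter on low signals, which kept 8618 of the 13286 genes.

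The arrays fall into homozygous (3 arrays) and heterozygous (3 arrays) plants of a line labelled AtCesA4 with the allele irx5-2, and homozygous (2 arrays) and heterozygous (2 arrays) plants of a line labelled AtCesA6 and, in its descriptions, irx6-1. Both lines are in ecotype Col-0. All plants were untreated, 4 weeks old and kept at 22 °C and 50% humidity in a chamber. Every group carries the mutant allele and no wild-type array was analysed here. Homozygous plants are therefore set against heterozygous plants of the same line. The second line's label AtCesA6 and its allele name irx6-1 do not point to the same gene in the reference, so which gene is mutated in that line is not settled here, and the line is called CesA6 after its label. The labels do not say whether replicate arrays came from separate plants, so errors and p-values measure the spread between these arrays, which may be technical.

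AP2/ERF proteins are plant transcription factors that bind DNA through the AP2 domain, and many are made quickly and briefly after wounding, touch, pathogens, ethylene, jasmonate, cold or drought. AT5G61590, also called DEWAX (Decrease Wax Biosynthesis), represses genes of cuticular wax synthesis. ORA47 is induced by jasmonate and activates genes of jasmonate synthesis. AT1G77640 and AT1G33760 belong to the DREB branch of the family, whose best known members act in cold and drought responses, and no particular role is given to either here.

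Signals are the deposited MAS5 intensities, on a linear scale, and levels are compared between arrays for 1 gene at a time. In the CesA4 line AT5G61590 had signals of 267, 268 and 407 in homozygous plants, against 893, 1038 and 1041 in heterozygous plants. Its signals in the CesA6 line were 52.3 and 34.2 in homozygous plants, against 715 and 788 in heterozygous plants. The wax repressor gene was thus lower in every homozygous array than in every heterozygous array of its own line, and the homozygous CesA6 arrays were the lowest of all. By group means it was 3.15-fold lower in homozygous plants in the CesA4 line and 17.4-fold lower in the CesA6 line. On the log2(signal + pseudocount) scale, after each array was brought to a trimmed mean of 500 and with a pseudocount of 16, the change in the CesA4 line was -1.67 ± 0.18 (SE of the limma fit, n = 3 and 3 arrays). In the CesA6 line it was -4.05 ± 0.22 (SE, n = 2 and 2). The 9 homozygous-heterozygous pairs of the CesA4 line gave differences of -1.95 to -1.13 on that scale, and the 4 pairs of the CesA6 line gave -4.40 to -3.69, so the ranges of the lines did not meet.

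ORA47 had signals of 94.8, 96.1 and 140.2 in homozygous CesA4 plants, against 48.0, 34.2 and 45.1 in heterozygous CesA4 plants. Its signals were 48.5 and 31.4 in homozygous CesA6 plants, against 77.4 and 69.8 in heterozygous CesA6 plants. This jasmonate regulator was therefore higher in all homozygous arrays of the CesA4 line and lower in both homozygous arrays of the CesA6 line. The log2 change was 1.31 ± 0.23 in the CesA4 line and -0.86 ± 0.29 in the CesA6 line. Single pairs of arrays ran from 0.94 to 1.94 in the CesA4 line and from -1.22 to -0.50 in the CesA6 line.

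AT1G77640 had signals of 23.5, 1.10 and 4.45 in homozygous CesA4 plants, against 104, 126 and 131 in heterozygous CesA4 plants. Its signals were 18.2 and 20.7 in homozygous CesA6 plants, against 36.5 and 20.9 in heterozygous CesA6 plants. The groups of the CesA4 line lay far apart, although the homozygous arrays differed widely among themselves, while those of the CesA6 line nearly touched. The log2 change was -3.68 ± 0.48 in the CesA4 line. In the CesA6 line, whose arrays did not enter the ranking that brought this gene in, it was -0.45 ± 0.59 and did not pass (limma, adjusted p = 0.751). Over 19 alternative settings that value ran from -0.81 to -0.09, with adjusted p-values of 0.627 to 0.974.

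AT1G33760 had signals of 0.888, 2.18 and 0.583 in homozygous CesA4 plants, against 54.0, 51.5 and 43.7 in heterozygous CesA4 plants. Its signals were 0.900 and 1.17 in homozygous CesA6 plants, against 22.1 and 23.4 in heterozygous CesA6 plants. All 5 homozygous arrays lay below the pseudocount, which equals 3.20 on the deposited scale, and all 5 heterozygous arrays lay well above it. The log2 changes understate such a difference and depend on the pseudocount. They were -3.59 ± 0.61 in the CesA4 line and -2.61 ± 0.75 in the CesA6 line, where all homozygous arrays were the lower ones. AT1G33760 passed the filter on low signals through its heterozygous arrays alone, with a mean of 38.9 there and of 1.15 in the homozygous arrays, against a filter threshold of 10.7 on the deposited scale. A difference between the genotypes was therefore a condition of its being measured, and no test is given for either line. With pseudocounts of 1 and 64 the change was -5.29 and -2.15 in the CesA4 line and -4.22 and -1.36 in the CesA6 line.

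**Figure D1:**
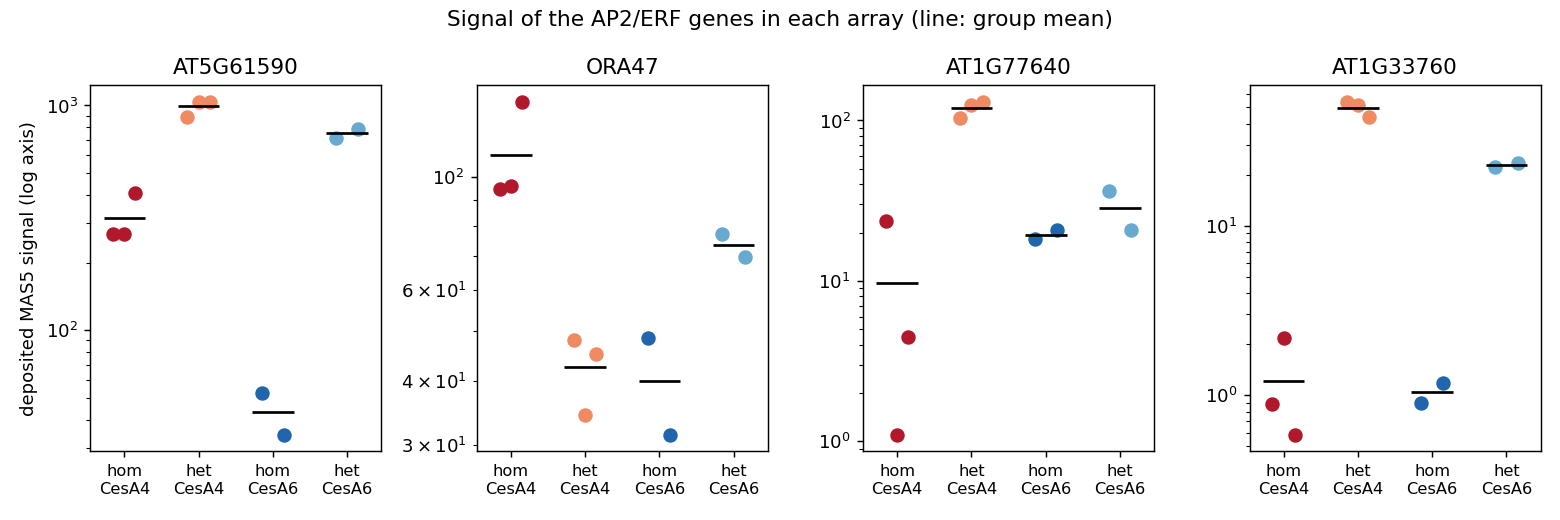
Deposited MAS5 signal on a log axis in each array for the 4 AP2/ERF genes, by group (hom, homozygous, 3 CesA4 and 2 CesA6 arrays; het, heterozygous, 3 CesA4 and 2 CesA6 arrays), with a line at each group mean; vertical scales differ between panels. AT5G61590 reached 34.2 in homozygous CesA6 plants, ORA47 was above its heterozygous group in the CesA4 line and below it in the CesA6 line, and AT1G33760 was at or under 2.18 in every homozygous array.

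The 4 genes entered through these contrasts, so the frequency of such separations over all probe sets is given for scale only. Of the 15922 probe sets tested, 13.9% had every homozygous CesA4 array below every heterozygous one and 15.8% had every one above. With 2 arrays a group, 28.6% lay below without overlap and 23.1% above in the CesA6 line. The orders of the lines were opposite for few probe sets, with homozygous arrays all higher in the CesA4 line and all lower in the CesA6 line for 1.53%, and the reverse for 1.22%. At an adjusted p threshold of 0.05, limma called 15.2% of probe sets for homozygous against heterozygous plants of the CesA4 line (8.22% higher and 6.97% lower), 8.55% for those of the CesA6 line (3.73% higher and 4.82% lower) and 0.578% for the difference between the lines' changes (0.333% higher and 0.245% lower).

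Subtracting the CesA6 change from the CesA4 change gave a difference between lines of 2.38 ± 0.28 on the log2 scale for AT5G61590 and of 2.17 ± 0.37 for ORA47. It was -3.23 ± 0.76 for AT1G77640 and -0.98 ± 0.96 for AT1G33760. The sizes are not tested, since this contrast or the CesA4 arrays in it chose the genes. AT5G61590 and ORA47 thus had the more positive change in the CesA4 line, and AT1G77640 the more negative one, while the estimate for AT1G33760 was about the size of its error. The difference for AT5G61590 stayed between 2.09 and 2.66 over 18 alternative settings, that for ORA47 between 1.87 and 2.46, and that for AT1G77640 between -4.01 and -2.35. For AT1G33760 it stayed between -1.13 and -0.79 over 17 alternatives, so an error of that size does not show that the lines changed alike.

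The gap between the lines is given below for each genotype. These gaps hold arrays that chose the genes, so they are a description with no test. For AT5G61590 the CesA4 line exceeded the CesA6 line by 2.77 ± 0.20 (log2, SE) in homozygous plants and by 0.40 ± 0.20 in heterozygous plants, so that the lines stood apart mainly in the homozygous plants. For AT1G77640 the value was -1.24 ± 0.54 in homozygous plants and 1.99 ± 0.54 in heterozygous plants. Its heterozygous signals were 104 to 131 in the CesA4 line and 20.9 and 36.5 in the CesA6 line. For ORA47 the lines differed in opposite directions, by 1.40 ± 0.26 in homozygous and -0.76 ± 0.26 in heterozygous plants. AT1G33760 differed by 0.04 ± 0.68 in homozygous plants, where all arrays were dim, and by 1.02 ± 0.68 in heterozygous plants. The heterozygous signals of AT1G33760 were 43.7 to 54.0 in the CesA4 line and 22.1 and 23.4 in the CesA6 line.

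**Figure D2:**
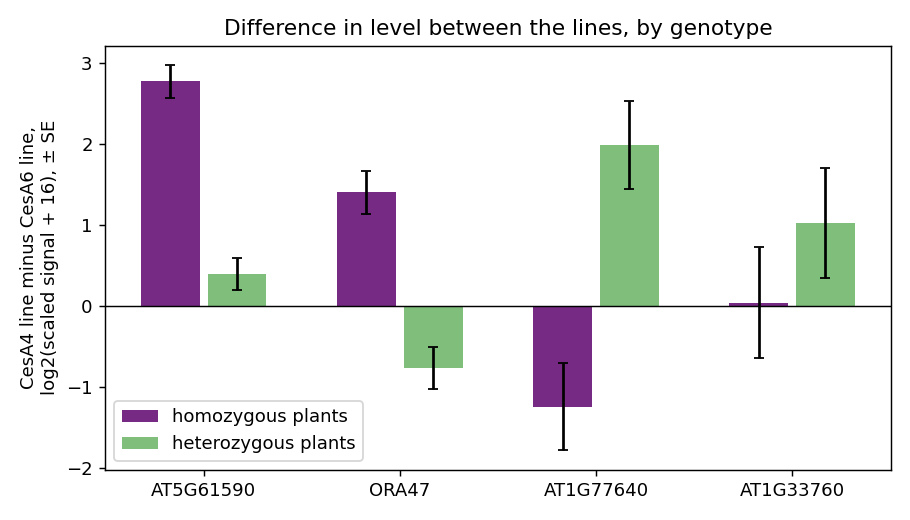
Level in the CesA4 line minus level in the CesA6 line, as log2(scaled signal + 16), in homozygous (left bars, 3 against 2 arrays) and heterozygous plants (right bars, 3 against 2 arrays) for each gene; error bars are standard errors of the fit. AT5G61590 shows its larger gap in homozygous plants (2.77) and AT1G77640 in heterozygous plants (1.99), and ORA47 has gaps of opposite sign (1.40 and -0.76). The gaps hold arrays that chose the genes and carry no test.

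Averaged over both genotypes, AT5G61590 was 1.58 ± 0.14 higher in the CesA4 line than in the CesA6 line on the log2 scale. ORA47 stood at 0.32 ± 0.19, AT1G77640 at 0.37 ± 0.38 and AT1G33760 at 0.53 ± 0.48. These averages hold the arrays that chose the genes, among them the low homozygous CesA6 arrays of AT5G61590, so they are given with no test. Any handling that went with the line cannot be told apart from the line.

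The genes also differed in how closely replicate arrays repeated. The residual SD within groups on the log2 scale was 0.27 for AT5G61590, 0.29 for ORA47, 0.81 for AT1G77640 and 0.18 for AT1G33760, against a median of 0.29 over the tested probe sets. AT1G77640 was thus more variable than 92.8% of them, and AT1G33760 more variable than 19.3%. All homozygous arrays of AT1G33760 lay below the pseudocount, which shrinks the differences between them on this scale. Its homozygous CesA4 signals ran from 0.583 to 2.18, so the small SD does not show that these arrays repeated closely. The standard errors printed for AT1G33760 are wider than its own spread because the fit draws a dim probe set towards the spread of others of similar brightness.

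Within groups, AT5G61590 and ORA47 deviated together in the homozygous arrays. The third homozygous CesA4 array was the highest of its group for both, at 407 for AT5G61590 and 140.2 for ORA47, and the first homozygous CesA6 array exceeded the second for both, at 52.3 and 48.5. Pearson's r between the deviations of the genes from their group means was 0.71 over the 10 arrays, as a description, since deviations in a group sum to 0 and the arrays share their scaling. In the heterozygous arrays no such order was seen. For the other pairs of genes the same value ran from -0.58 to -0.17. Over the whole signals, which mostly follow the groups, AT1G77640 and AT1G33760 had an r of 0.81 and AT5G61590 and AT1G33760 an r of 0.79, while ORA47 and AT1G77640 had -0.68.

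**Figure D3:**
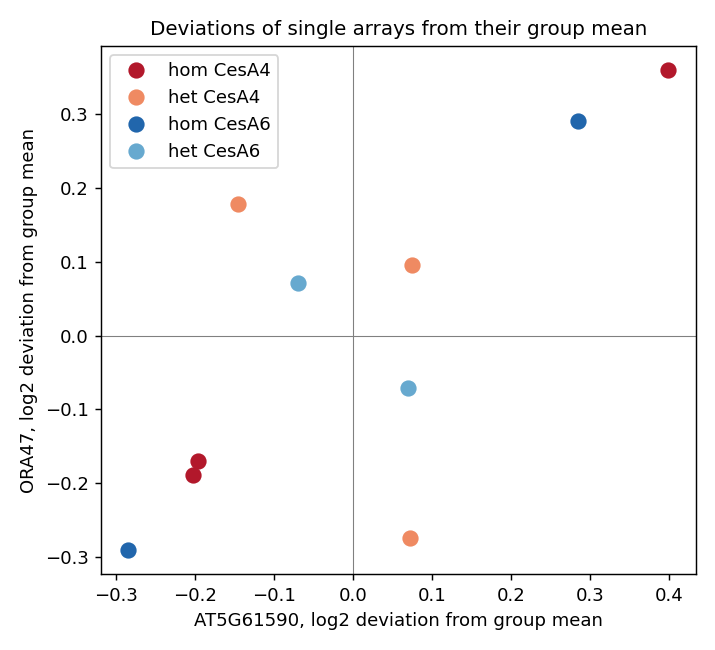
Deviation of each array from its group mean, on the log2(scaled signal + 16) scale, for AT5G61590 (horizontal) and ORA47 (vertical), 1 point per array and 1 colour per group. The homozygous arrays of both lines run from low for both genes to high for both, and the heterozygous arrays do not; r over the 10 points is 0.71.

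The named genes whose log2 signal followed each gene most closely over the 10 arrays differed from gene to gene, and no gene was among the 5 nearest of more than 1 of them. Nearest to AT5G61590 were AT2G25200 (r = 0.98), AT1G70270 (0.97), AT5G46710 (0.97), AT5G40150 (0.96) and AT1G55160 (0.96). AT2G25200 averaged 52.3 in homozygous and 104 in heterozygous CesA4 plants, and 14.4 in homozygous and 106 in heterozygous CesA6 plants, which is the same order of groups within each line. ORA47 had looser neighbours, with r from 0.87 to 0.91, the nearest being AT1G48560, AT2G27830 and AT2G38730. For AT1G77640 they were AT1G04430 (0.97), AT4G38710 (0.96), AT5G03345 (0.96), AT4G28780 (0.95) and BZIP53 (0.93), which encodes a basic leucine zipper transcription factor. AT1G33760 was matched most closely by AT1G29660, with an r of 0.99, followed by AT3G10720, AT5G32450, AT2G47440 and AT1G18740, all at 0.98. AT1G29660 averaged 207 in homozygous and 1062 in heterozygous CesA4 plants, and 195 in homozygous and 699 in heterozygous CesA6 plants. These coefficients mostly restate the group means that the arrays share and carry no test.

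Other genes of the AP2/ERF family were taken from a list of 119 loci, of which the 4 genes above are part. Of the other 115 loci 30 had a probe set annotated to a single gene, and 19 of these passed the filter on low signals. Of the 19, 5 rose in homozygous CesA4 plants and 2 fell, which is 36.8% against 15.2% of all tested probe sets. In homozygous CesA6 plants 3 rose and 2 fell, or 26.3% against 8.55%. The median log2 change of the 19 was 0.47 in the CesA4 line and 0.33 in the CesA6 line, against 0.02 and -0.04 for all tested probe sets. The risers of both lines include AT2G22200, which passed the filter on low signals through its homozygous arrays alone. Its place in these counts is therefore no support for a rise. AT1G19210 also passed through its homozygous arrays alone, with a mean of 15.6 there and of 6.53 in the heterozygous arrays. Its changes of 1.09 ± 0.64 and 0.92 ± 0.78 were not called (limma, adjusted p = 0.292 and 0.57). Both genes lie above the medians in both lines, so the medians are no support for a rise of the family either. The 19 genes thus moved in both directions.

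AT5G07580 fell in both lines. Its signals were 97.0, 86.5 and 83.1 in homozygous CesA4 plants, against 302, 315 and 276 in heterozygous CesA4 plants. They were 46.9 and 61.6 in homozygous CesA6 plants, against 371 and 336 in heterozygous CesA6 plants. The groups did not overlap in either line, and the falls were -1.71 ± 0.17 (limma, adjusted p = 5.6e-08) and -2.64 ± 0.20 (adjusted p = 6.23e-09). As with AT5G61590 the estimate was lower in the CesA6 line, but the difference of 0.93 ± 0.26 did not pass (adjusted p = 0.117, and 0.0815 to 0.374 over the alternatives).

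AT1G44830 had 20.6, 24.3 and 10.4 in homozygous CesA4 plants, against 38.3, 40.0 and 43.3 in heterozygous CesA4 plants. The CesA6 line had 3.05 and 2.80 in homozygous plants, against 22.3 and 43.4 in heterozygous plants. It fell in the CesA6 line by 2.49 ± 0.54 on the log2 scale (limma, adjusted p = 0.00317), a call lost without heterozygous CesA6 replicate 2 (adjusted p = 0.102), and stood at -1.08 ± 0.44 in the CesA4 line without passing (adjusted p = 0.108). Its homozygous CesA6 signals lie below the pseudocount, and the CesA6 change was -3.33 and -1.50 with pseudocounts of 1 and 64. AT4G32800 fell in the CesA4 line by 1.30 ± 0.24 (adjusted p = 0.000444) and stood at -0.69 ± 0.30 in the CesA6 line (adjusted p = 0.176).

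Of the family genes that rose, AT2G22200 and AT1G01250 did so in both lines. AT2G22200 had 58.7, 47.4 and 31.7 in homozygous CesA4 plants, against 5.21, 2.195 and 2.15 in heterozygous CesA4 plants, and 72.7 and 74.4 in homozygous CesA6 plants, against 2.05 and 12.03 in heterozygous CesA6 plants. Its rises of 2.94 ± 0.49 and 3.10 ± 0.60 start from signals near the pseudocount, so the sizes are uncertain. The gene passed the filter on low signals through its homozygous arrays alone, with a mean of 57.0 there and of 4.73 in the heterozygous arrays, so its calls and its place in the counts are no support for a rise. AT1G01250 had 344, 231 and 315 in homozygous CesA4 plants, against 94.2, 72.1 and 94.2 in heterozygous CesA4 plants, and 270.2 and 381 in homozygous CesA6 plants, against 74.2 and 91.7 in heterozygous CesA6 plants. Its rises were 1.73 ± 0.19 and 1.92 ± 0.23, with no overlap between the groups of either line. AT5G07580 and these risers, 3 of the 19 or 15.8%, passed in both lines with the same sign, as did 5.56% of all tested probe sets. The 3 include AT2G22200, whose calls are no support, so nothing is drawn from the higher share.

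**Figure D4:**
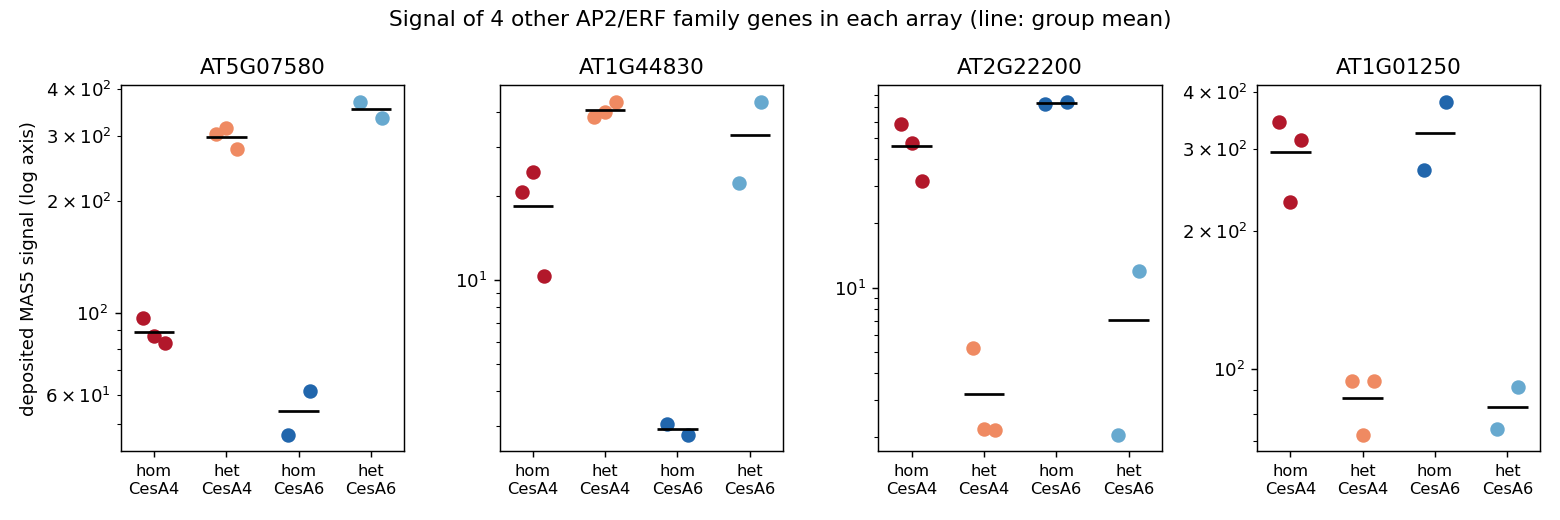
Deposited MAS5 signal on a log axis in each array for AT5G07580, AT1G44830, AT2G22200 and AT1G01250, by group (hom, homozygous; het, heterozygous), with a line at each group mean; vertical scales differ between panels. AT5G07580 is lower and AT1G01250 higher in every homozygous array than in any heterozygous array of the same line.

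The remaining rises in the CesA4 line were AT4G39780 at 1.30 ± 0.28, SNZ (SCHNARCHZAPFEN, a repressor of flowering) at 1.27 ± 0.30 and AT4G16750 at 0.93 ± 0.24. TINY2, a DREB-type gene, rose in the CesA6 line by 1.69 ± 0.32, with 74.5 and 120.1 in homozygous plants against 23.4 and 31.4 in heterozygous plants. The TINY2 call was lost without homozygous CesA6 replicate 2 (adjusted p = 0.0519) and the SNZ call with eBayes without trend and robust (adjusted p = 0.0582). For the difference between the lines' changes 0 of the 19 passed by limma, where 0.578% of all tested probe sets did. Of the 19, 5 had an unadjusted p under 0.05 by limma, as did 1906 of all 15922 tested probe sets. Without trend and robust in eBayes no probe set passed at all, so that fit says nothing about the family. In simulations 8.96% of such differences of 1 (log2) were recovered, so the 0 of 19 says little about that size. Between the lines, over both genotypes, AT2G44940 was lower in the CesA4 line by 0.86 ± 0.17 (adjusted p = 0.00258) and was the only one of the 19 to pass, or 5.26% against 6.83% of all probe sets (2.69% higher and 4.13% lower in the CesA4 line). That call was lost with eBayes without trend and robust (adjusted p = 0.0587).

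**Figure D5:**
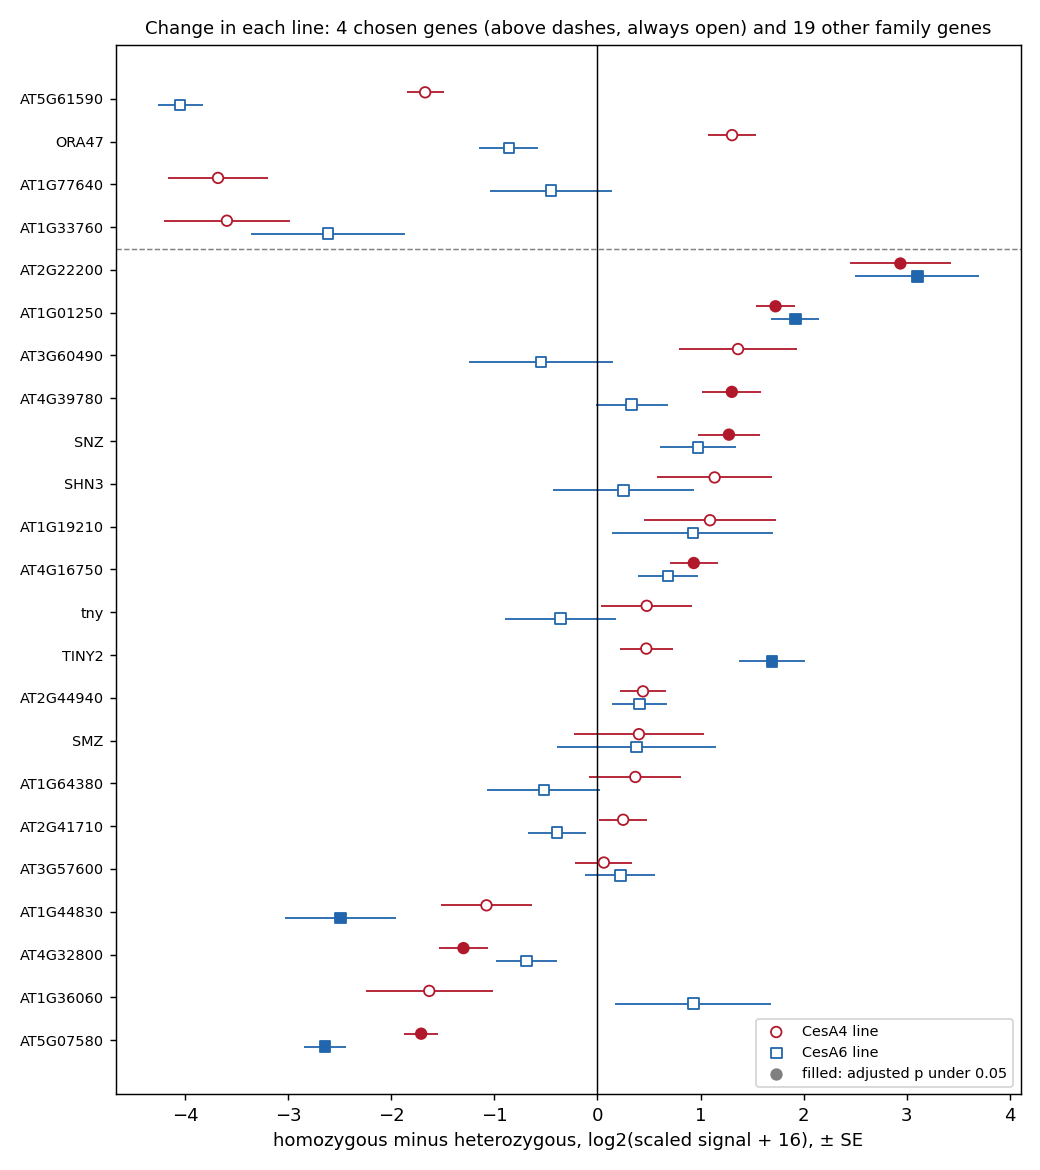
Homozygous minus heterozygous change on the log2(scaled signal + 16) scale, with standard errors, in the CesA4 line (circles, 3 and 3 arrays) and the CesA6 line (squares, 2 and 2 arrays) for the 4 chosen genes, above the dashed line and always drawn open, and 19 other AP2/ERF family genes, where filled symbols passed limma at an adjusted p of 0.05. ORA47 lies on opposite sides of 0 in the lines, AT5G07580 on the low side and AT2G22200 and AT1G01250 on the high side in both. AT2G22200 passed the filter on low signals through its homozygous arrays alone.

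Genes of the processes that AT5G61590 and ORA47 are known to control were little covered. Of 30 listed genes of wax synthesis and its regulation 5 were tested, and 0 passed in the CesA4 line, where 15.2% of all probe sets did. In the CesA6 line 1 of the 5 rose, where 3.73% of all probe sets did, and with 5 genes these counts say little about the list. That gene was WSD1, which makes wax esters, with 65.9 and 63.1 in homozygous CesA6 plants, against 1.29 and 25.5 in heterozygous CesA6 plants, a rise of 2.58 ± 0.62 (limma, adjusted p = 0.00867). The call was lost in 5 of 18 alternatives, with the change at 1.24 without heterozygous CesA6 replicate 1 (adjusted p = 0.211) and at 3.39 and 1.73 with pseudocounts of 1 and 64. In the CesA4 line WSD1 stood at 0.77 ± 0.50 (adjusted p = 0.361), and the difference between the lines did not pass (adjusted p = 0.368). The other tested genes, ACLA-1, ACLA-2, ACLA-3 and ACLB-1, encode subunits of ATP-citrate lyase, which supplies acetyl-CoA for wax precursors. Their changes lay between -0.37 and 0.03 in both lines and none passed.

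Of 35 listed jasmonate genes 2 were tested. JMT, which makes methyl jasmonate, had 179, 125 and 205 in homozygous CesA4 plants, against 103, 97.2 and 119.8 in heterozygous CesA4 plants, a rise of 0.63 ± 0.19 (limma, adjusted p = 0.0228) that was lost in 6 of 19 alternatives (adjusted p of 0.00282 to 0.131 in all), leaving out homozygous CesA4 replicate 3 (0.131) among them. The CesA6 line had 256 and 206 in homozygous plants, against 131 and 151 in heterozygous plants, at 0.69 ± 0.23 (adjusted p = 0.0644). OPCL1, a ligase of jasmonate precursors, stood at 0.40 ± 0.19 in the CesA4 line and -0.23 ± 0.23 in the CesA6 line, and passed in neither (adjusted p = 0.185 and 0.648). It was lower in the CesA4 line than in the CesA6 line over both genotypes, by 0.77 ± 0.15 (adjusted p = 0.00218), a call lost with eBayes without trend and robust (adjusted p = 0.0807).

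Leaf genes were strong in all arrays, with group means of 10357 to 11187 for RCA, the Rubisco activase gene, and 2774 to 3713 for SBPASE of the Calvin cycle. SBPASE was lower in homozygous CesA4 plants by 0.40 ± 0.12 on the log2 scale (limma, adjusted p = 0.0222), and RCA passed in neither line (adjusted p = 0.746 and 0.762). The root gene PYK10 averaged 368 in homozygous and 196 in heterozygous CesA4 plants, and 319 in homozygous and 109 in heterozygous CesA6 plants. PYK10 did not pass (limma, adjusted p = 0.0764 and 0.052). The part of these marker genes in the values above was not tested. The 2 leaf genes and PYK10 were the members of the fixed marker lists with a named probe set, and no listed flower or seed marker had one. In rosettes, a change in the share of a cell type and a change of RNA per cell cannot be told apart. Correlations between replicate arrays of a group were 0.934 to 0.953 over the tested probe sets, and the transcripts of the mutated genes were not analysed here.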

How the data were processed

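The members and lists were chosen with earlier results of these data known. The deposited intensities are linear-scale signals of 22810 probe sets, 64 of them controls, made with MAS5 in GCOS per the submitters' processing notes. All arrays had a 2% trimmed mean of 100.01 as deposited. Detection calls were not used here, and no depth applies, so the number of arrays limits the precision.

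The arrays were brought to a 2% trimmed mean of 500, then 16 was added and log2 taken. After dropping controls and the dimmest 30% by mean signal, 15922 probe sets were tested. limma 3.58.1 in R 4.3.3 fitted a mean for each of the 4 groups (6 residual degrees of freedom, eBayes with trend and robust), and p-values were adjusted by Benjamini-Hochberg over all tested probe sets, with a threshold of 0.05. Errors are standard errors of that fit. The annotation gave 13513 probe sets 1 gene, 503 several and 8730 none, and 13436 were matched by gene ID to TAIR10.1. Where a gene had several probe sets the brightest stood for it. Named beside the chosen genes were, per comparison and direction, up to 6 called family genes, listed wax and jasmonate genes, and for each chosen gene the 5 named genes with the highest r. No protein or promoter sequence was used here, so the family was taken from a list of loci.

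In simulations each probe set kept its overall mean and its spread. Log2 changes of 0.5, 1 and 2 were added to 67, 67 and 66 of the 15922 probe sets. Far more were called in the data within the lines (2417 and 1361), so the shares recovered there may not hold for these data. For changes of 2, limma recovered 75.8% within the CesA4 line and 60.6% within the CesA6 line. It recovered 50% for the difference between changes and 83.3% between the lines. For log2 changes of 1 the shares were 38.8%, 26.9%, 8.96% and 40.3% in the same order. Alternatives were other pseudocounts, filters and scalings, eBayes without trend and robust, fits to 1 line, a replicate block and leaving out each array.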

Additional observations from a re-analysis of the deposited data

Results flagged for a closer look

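AT5G61590 and ORA47 had changes that differed between the lines by 2.38 ± 0.28 and 2.17 ± 0.37 (log2, CesA4 change minus CesA6 change, SE). Both were chosen for that difference, so no test is given. For ORA47 every homozygous array lay above every heterozygous array in the CesA4 line and below in the CesA6 line. Among the 19 other family genes AT3G60490 had the same order as ORA47, which 1.53% of all tested probe sets had, and AT1G36060 had the reverse one, which 1.22% had. AT1G36060 had 0.919, 4.35 and 2.19 in homozygous and 15.1, 13.4 and 13.2 in heterozygous CesA4 plants, and 18.9 and 34.6 in homozygous and 12.4 and 11.5 in heterozygous CesA6 plants. Its difference of -2.56 ± 0.98 did not pass (limma, adjusted p = 0.275). AT3G60490 differed by 1.91 ± 0.90 and did not pass either (adjusted p = 0.404). AT1G74940, which lies near ORA47, had a difference of 1.49 ± 0.27 that passed (limma, adjusted p = 0.0113), where 0.578% of all probe sets did. This gene was picked from the neighbours of the chosen genes after values were seen. Its call was lost in 4 of 18 alternatives, with adjusted p-values of 0.0729 to 0.238, namely eBayes without trend and robust and leaving out homozygous CesA6 replicate 2 or either heterozygous CesA6 replicate.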

How the results depend on the processing

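No value of the 4 chosen genes changed sign under any alternative, and no called value of another gene did. Leaving out 1 array each gave 1943 to 2353 called probe sets in the CesA4 comparison (2417 with all arrays), 719 to 1558 in the CesA6 comparison (1361), 15 to 137 for the difference between changes (92) and 503 to 1112 between the lines (1087). In the CesA6 comparison, leaving out heterozygous CesA6 replicate 1 gave 781 calls, heterozygous CesA6 replicate 2 gave 790 and homozygous CesA6 replicate 2 gave 719. The count for the difference was 42 without homozygous CesA4 replicate 1 and without heterozygous CesA4 replicate 3, 43 without heterozygous CesA4 replicate 1, 17 without homozygous CesA6 replicate 2, and 15 and 19 without heterozygous CesA6 replicates 1 and 2. The count between the lines was 667 without homozygous CesA6 replicate 1 and 503 without heterozygous CesA6 replicate 1. With 1 array left in a CesA6 group, that array is assumed to vary like the others. With eBayes without trend and robust, limma called 744 in the CesA6 comparison, 0 for the difference (1632 at an unadjusted p under 0.05) and 424 between the lines. The cause was not tested. With a filter of 50% in place of 30%, 1 other family gene fell in the CesA6 line in place of 2. With the replicate number as a block the difference had 205 calls, while deviations of same-numbered arrays correlated at 0.02 to 0.08, so the numbers were not taken to pair the arrays, and a block cannot be fitted to the line comparison. Dim signals without detection calls limit what AT1G33760, AT1G77640, AT2G22200, AT1G44830, AT1G36060, AT3G60490 and WSD1 can show.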

Other observations

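The genes next to each chosen gene in the reference were looked up after values were seen. Near AT5G61590 AT5G61560 and AT5G61570 were tested, near AT1G77640 AT1G77610 and AT1G77660, and near AT1G33760 AT1G33780. None of these passed in either line (limma, lowest adjusted p = 0.108, for AT1G33780 in the CesA6 line). The genes below lie near ORA47. AT1G74940, the second protein-coding gene after ORA47, had 153, 187 and 171 in homozygous and 149, 138 and 112 in heterozygous CesA4 plants, and 97.2 and 78.0 in homozygous and 187 and 203 in heterozygous CesA6 plants. Like ORA47 it was lower in both homozygous CesA6 arrays, by 1.13 ± 0.21 on the log2 scale (limma, adjusted p = 0.000809), and it stood at 0.36 ± 0.17 in the CesA4 line (adjusted p = 0.19). ALDH10A8, just before ORA47, stood at 0.33 ± 0.14 in the CesA4 line and 0.30 ± 0.17 in the CesA6 line and passed in neither (adjusted p = 0.121 and 0.349). AT1G74910, the gene before that, was lower in homozygous CesA6 plants by 0.70 ± 0.20 (adjusted p = 0.0332) and stood at -0.29 ± 0.17 in the CesA4 line (adjusted p = 0.291). ERF104, which adjoins AT5G61590, and TIFY10B near ORA47 were not analysed here.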
